A study of Mus with 2 samples.

Results

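The genes described are 9 transcripts that serve as readouts of natural killer (NK) cells: the receptor genes Ncr1, Klre1, Klrk1, Klrc1 and Klrd1, the transcription factor gene Eomes, the cytokine receptor gene Il2rb, and the secreted products Xcl1 and Ifng. They were chosen by symbol out of the 32285 features counted, with earlier results of these data known, and all 9 were detected in both sections. Each had at least 20 unique molecular identifiers (UMIs, one per captured RNA molecule) in each section, so 9 of 9 passed the filter on low counts. The question asked of them was how their UMIs were distributed between the sections, between the rim and the interior of each tumor, and between spots with and without a UMI of the T cell gene Cd3e.

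The data are Visium spatial transcriptomes of CT26 tumors, a colon carcinoma cell line grown under the skin of syngeneic BALB/c mice aged 6 to 8 weeks. There were 2 groups with 1 section each, both from day 15 after transplantation. The control section came from a mouse labelled PBS, and the rIL7 section from a mouse injected intraperitoneally with 10 µg of recombinant mouse IL7 on day 11 and again on day 13. A Visium spot covers a small area of the 10 µm section and may catch RNA from a number of cells, of more than one type, or from part of one. With 1 section per group no test was possible, and the 95% intervals given with each value cover counting error only. They leave out differences between mice, tumors, cut positions and slides.

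NK cells are innate lymphocytes that kill target cells without a rearranged antigen receptor, reading the balance of activating and inhibitory receptors on their surface. Many of these receptors are lectin-like proteins encoded side by side in the NK gene complex, whose content differs between mouse strains. Once activated, NK cells secrete interferon gamma and chemokines, as do cytotoxic T cells, and activated CD8+ T cells also take up several of the same genes, among them Klrk1, Klrd1, Klrc1, Il2rb, Eomes, Xcl1 and Ifng. Ncr1 is the member most restricted to NK cells and related innate lymphoid cells, and T cells are marked by the CD3 chains. In such spot data, fewer cells of a type and less RNA per cell cannot be told apart.

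The kept spots numbered 2219 (control) and 1950 (rIL7), with 22951678 and 25729233 UMIs and medians of 9623 and 12921.5 UMIs per spot. Levels are therefore given as counts per 1000000 UMIs of the same spots (CPM). The rim, defined as the 2 outermost rings of grid positions of the main tissue piece, held 401 control spots and 330 rIL7 spots, and the interior held 1806 and 1599. The remaining 12 and 21 spots lay outside the main piece and carried 7 and 33 UMIs of the 9 genes. The sections share 1701 spot barcodes because each slide area carries the same barcode set, not because they share spots. All 7 genes fixed as NK markers (Ncr1, Klre1, Klrb1c, Klrd1, Klrk1, Eomes and Gzma) were detected in both sections. The files are counted against mm10, a C57BL/6 genome, whereas the mice were BALB/c, and the effect of this on the counts of the NK gene complex was not tested.

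The summed level of the 9 genes was higher in the rIL7 section. It stood at 58.5 CPM (95% interval 55.4 to 61.7, 1343 UMIs) in the control section and at 153 CPM (149 to 158, 3942 UMIs) in the rIL7 section, a ratio of 2.62 (2.46 to 2.79). Of the 9 genes, 8 had a ratio of at least 2, the exception being Klrk1, and 9 of 9 had a ratio above 1. Among the 5614 features within the UMI range of the 9 genes, 3.21% had a ratio of at least 2. Among all 14313 features with at least 20 UMIs over both sections, 4.05% had a ratio of at least 2 and 49.6% a ratio above 1. The median ratio was 2.82 over the 9 genes and 0.9985 over all those features. Because the 9 genes were chosen with earlier results known, the shares of features here and below are a reference only. Each section was also cut into 4 quadrants along the median row and the median column of its spots. The summed level ranged from 39.98 to 73.8 CPM over the control quadrants and from 106 to 192 CPM over the rIL7 quadrants, so the ranges did not overlap. The quadrants are pieces of 1 section and no replicates.

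Ncr1 (chr7:4337715-4345184, GRCm38) encodes NKp46, an activating receptor of NK cells. It had 180 UMIs and 7.84 CPM (6.74 to 9.08) in the control tumor, and 510 UMIs and 19.8 CPM (18.1 to 21.6) in the rIL7 section, a ratio of 2.53 (2.13 to 3.01). Its highest control quadrant, at 12.7 CPM, lay below its lowest rIL7 quadrant, at 13.9 CPM. A Ncr1 UMI was present in 7.35% of control spots and 20.8% of rIL7 spots. After every spot was thinned to 5900 UMIs, so that depth no longer differed, these shares were 4.15% (83 of 2002 spots) and 11.0% (205 of 1869 spots), and the rIL7 share was again the larger.

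Klre1, Klrd1, Klrk1 and Klrc1 lie in this order within one stretch of the NK gene complex, from chr6:129559365 to chr6:129682852. Klre1 (chr6:129559365-129585828) encodes a lectin-like receptor that pairs with the products of Klri1 and Klri2. It was the gene with the highest section ratio of the 9, with 1.92 CPM (1.39 to 2.57, 44 UMIs) in the control section, 7.27 CPM (6.26 to 8.39, 187 UMIs) in the rIL7 section, and a ratio of 3.79 (2.72 to 5.39). Klrd1 (chr6:129588092-129598775) encodes CD94, the common partner chain of the NKG2 receptors. It had 11.7 CPM (10.4 to 13.2, 269 UMIs) in the control section and 34.9 CPM (32.7 to 37.3, 899 UMIs) in the rIL7 section, a ratio of 2.98 (2.60 to 3.43), and the quadrants of the sections did not overlap for either gene.

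Klrc1 (chr6:129666015-129682852) encodes NKG2A, the inhibitory partner of CD94 that binds the non-classical MHC molecule Qa-1. Its level was 2.66 CPM (2.03 to 3.41, 61 UMIs) in the control section and 9.41 CPM (8.26 to 10.7, 242 UMIs) in the rIL7 section, a ratio of 3.54 (2.66 to 4.77). Its neighbors Klrc2 and Klrc3 are near-identical copies, so the split of reads among the 3 genes is uncertain. Klrc2, the activating counterpart, had 17 control and 87 rIL7 UMIs, and Klrc3 had 0 and 2. How many reads were lost or exchanged among the copies was not tested.

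Klrk1 (chr6:129610323-129623903) encodes NKG2D, the activating receptor for stress-induced ligands, and it had the lowest section ratio of the 9. Its level was 11.2 CPM (9.87 to 12.7, 257 UMIs) in the control section and 18.0 CPM (16.4 to 19.8, 464 UMIs) in the rIL7 section, a ratio of 1.61 (1.38 to 1.88). Its control quadrants reached 18.0 CPM and its rIL7 quadrants went down to 11.6 CPM, so they overlapped.

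Among the members that are not receptors of this kind, Eomes (chr9:118478186-118486132), a T-box factor of NK cells and effector CD8+ T cells, was the sparsest. It had 31 UMIs and 1.35 CPM (0.918 to 1.92) in the control section and 126 UMIs and 4.90 CPM (4.08 to 5.83) in the rIL7 section, a ratio of 3.63 (2.43 to 5.56). The annotation places another gene, Gm33408, over part of it, and that gene is not among the counted features. Il2rb (chr15:78479256-78511621), the beta chain shared by the receptors for IL-2 and IL-15, had 16.5 CPM (14.9 to 18.3, 379 UMIs) in the control section, 46.6 CPM (44.0 to 49.3, 1199 UMIs) in the rIL7 section and a ratio of 2.82 (2.51 to 3.18). For both genes the quadrants of the sections stood apart.

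Xcl1 (chr1:164931644-164935522) encodes a chemokine that draws cross-presenting dendritic cells through their receptor Xcr1. It had 3.01 CPM (2.34 to 3.81, 69 UMIs) in the control section and 6.72 CPM (5.76 to 7.80, 173 UMIs) in the rIL7 section, a ratio of 2.24 (1.68 to 3.001), with overlapping quadrants. Ifng (chr10:118441046-118445894), which encodes interferon gamma, had 2.31 CPM (1.73 to 3.02, 53 UMIs) and 5.52 CPM (4.65 to 6.51, 142 UMIs), a ratio of 2.39 (1.73 to 3.34). Its control quadrants ended at 3.32 CPM and its rIL7 quadrants began at 3.49 CPM, so the gap between them was narrow. In all, the quadrants of the sections stood apart for 7 of the 9 genes and overlapped for Klrk1 and Xcl1. Every rIL7 quadrant lay above every control quadrant for 9.74% of the 14313 features and for 10.4% of those in the UMI range of the 9 genes.

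**Figure D1:**
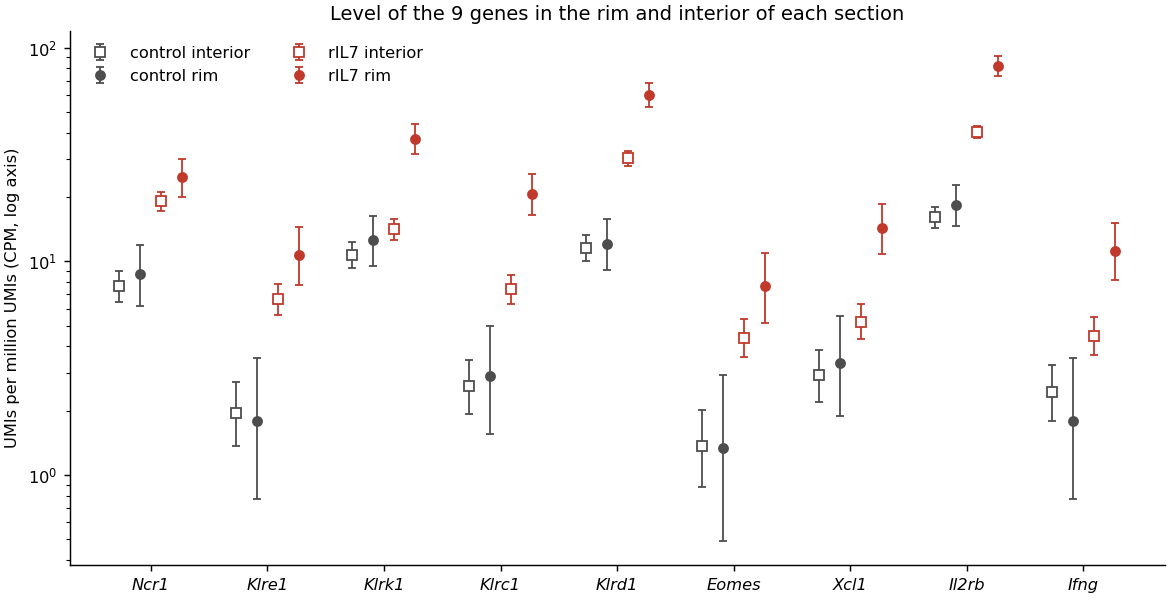
Level of each of the 9 genes in CPM (log axis) in the interior (open squares) and rim (filled circles) of the control (gray) and rIL7 (red) sections, with exact 95% Poisson intervals that cover counting error only. The rIL7 rim is the highest value for every gene (for Il2rb 82.3 CPM), while rim and interior overlap for every gene in the control section.

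The higher level in the rIL7 section was seen in both zones, and the ratio was larger at the rim. In the rim spots the summed level was 62.9 CPM (55.7 to 70.6) in the control section and 269 CPM (253 to 286) in the rIL7 section, a ratio of 4.28 (3.75 to 4.90), with 9 of 9 genes at 2-fold or more, against 9.3% of all features and 8.34% of those in the UMI range of the members. In the interior it was 57.4 CPM (54.0 to 61.0) and 132 CPM (127 to 137), a ratio of 2.30 (2.14 to 2.47), with 6 of 9 genes at 2-fold or more, against 3.13% and 2.3%. Klrk1 in the interior reached a ratio of 1.32 with an interval above 1, Xcl1 1.78 (1.28 to 2.51) and Ifng 1.83 (1.27 to 2.67), whereas at the rim these genes reached 2.99, 4.25 and 6.27. For all 9 genes the order of the 4 levels began with the rIL7 rim followed by the rIL7 interior. The counting intervals of those neighbors overlapped for Ncr1, Klre1 and Eomes, and were apart for the other 6 genes. Control rim and control interior overlapped for 9 of 9 genes. How many of all features had this order or such intervals was not computed, and the width of an interval depends on the number of UMIs.

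Within the control section, rim and interior differed little. The summed ratio of rim over interior was 1.095 (0.957 to 1.25), single genes ran from 0.731 (Ifng) to 1.17 (Klrk1), and every interval included 1. None of the 9 genes, 0 of 9, reached a ratio of 2, against 1.04% of 13180 features and 1.6% of the 4386 features in the UMI range of the members. Over the 4 control quadrants the summed ratio ran from 0.796 to 1.54, on both sides of 1. Klre1, Eomes and Ifng had only 6 to 8 rim UMIs each, so a moderate rim difference in them was not detectable at this depth.

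The rim of the rIL7 tumor held more of these transcripts, and unevenly so. The summed ratio of rim over interior was 2.04 (1.90 to 2.19) and ran from 1.40 to 2.59 over the 4 quadrants. A ratio above 1 was found for 9 of 9 genes, against 44.5% of 13358 features. The intervals of the 9 genes also lay above 1, and how many features had such an interval was not computed. A ratio of at least 2 was reached by 5 of 9 genes, against 6.95% of 13358 features and 5.37% of the 6440 features in the UMI range of the members. The rIL7 ratio over the control ratio of the sum was 1.86 (1.60 to 2.17).

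The genes fell along a range rather than at one ratio. Klrc1 had the highest rim ratio in the rIL7 section, with 20.6 CPM (81 UMIs) at the rim and 7.40 CPM (160 UMIs) in the interior, a ratio of 2.79 (2.11 to 3.67). Close to it were Xcl1 at 2.73 (1.95 to 3.80), Klrk1 at 2.65 (2.16 to 3.23) and Ifng at 2.50 (1.71 to 3.61). Il2rb at 2.05 (1.80 to 2.33), Klrd1 at 1.98 (1.70 to 2.31) and Eomes at 1.74 (1.11 to 2.65) followed, and their intervals overlapped those of the genes above them.

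Ncr1 was at the other end. It had 24.7 CPM (97 UMIs) at the rim of the rIL7 section and 19.1 CPM (412 UMIs) in the interior, a ratio of 1.30 (1.03 to 1.62), and by quadrant this ratio ran from 0.807 to 1.58. Klre1 had 10.7 CPM (42 UMIs) and 6.66 CPM (144 UMIs), a ratio of 1.61 (1.11 to 2.28). Ncr1 and Klre1 had the lowest rim ratios of the members and were summed as a pair after the values had been seen. A factor above 1 against this pair was therefore fixed by the choice, and its interval only describes counting error. Set against the pair, the rim ratio of Klrk1 was 1.92 times as high (1.45 to 2.54), that of Klrc1 2.02 times (1.44 to 2.84) and that of Klrd1 1.44 times (1.13 to 1.84). For Xcl1, Il2rb and Ifng the same comparison gave 1.98, 1.49 and 1.81 with intervals above 1, while for Eomes it gave 1.26 (0.776 to 2.01), which includes 1. The rIL7 rim ratio of the pair was 1.26 times its control ratio (0.860 to 1.87), an interval that includes 1.

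**Figure D2:**
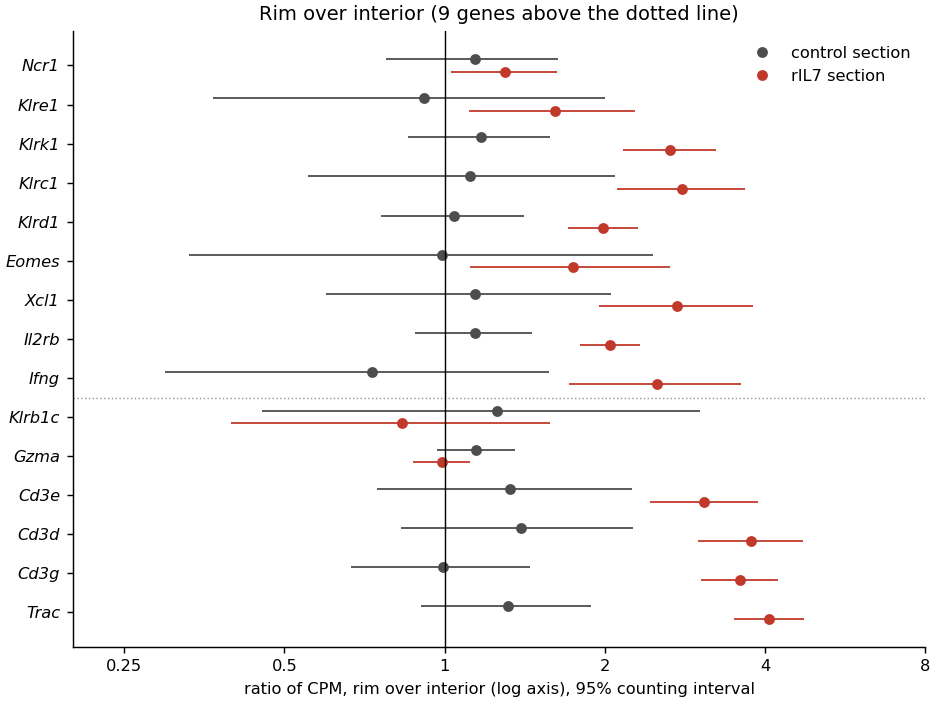
Ratio of CPM in the rim over the interior (log axis) for the 9 genes, the NK genes Klrb1c and Gzma and 4 T cell genes, in the control (gray) and rIL7 (red) sections, with exact 95% counting intervals. In the rIL7 section Ncr1 (1.30) and Gzma (0.989) lie near 1, Klrc1 lies at 2.79, and the CD3 genes lie beyond 3.

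Klrb1c and Gzma, the NK markers fixed beside the 5 that are members, had rim intervals that included 1 in the rIL7 section. Klrb1c, which encodes NK1.1, a receptor that varies between mouse strains, had 11 rim and 73 interior UMIs, a ratio of 0.831 (0.397 to 1.58). Gzma, a granzyme gene abundant in NK cells, had a ratio of 0.989 (0.874 to 1.12) on 309 and 1722 UMIs. Other NK receptor genes spread more widely. Of 11 with at least 20 UMIs in the rIL7 section, 8 had a rim ratio above 1 and 4 a ratio of at least 2, with a median of 1.67. They ran from 0.723 (0.607 to 0.856) for Itga2 to 6.36 (3.64 to 11.2) for Cd226, with Klrb1b at 2.85 (2.05 to 3.93) and Klrc2 at 2.22 (1.34 to 3.59). The CD3 chains and Trac had higher rim ratios than the 9 genes summed. Cd3e had a ratio of 3.07 (2.43 to 3.88), Cd3d 3.76 (2.997 to 4.70), Cd3g 3.58 (3.03 to 4.23) and Trac 4.07 (3.49 to 4.73). The other T cell reference genes did not all do so. Cd8b1 had 3.52 (2.61 to 4.73), Cd5 4.67 (3.20 to 6.79) and Cd4 11.3 (8.20 to 15.8). Cd8a at 2.28 (1.88 to 2.76) and Cd28 at 1.69 (0.954 to 2.86) lay within the range of the members. The summed CD3 chains had a rim ratio 1.71 times (1.49 to 1.96) that of the 9 genes. It was 2.53 times (2.03 to 3.17) that of Ncr1 and Klre1, the pair with the lowest rim ratios of the members, picked after these had been seen. In the control section the corresponding values were 1.06 (0.788 to 1.42) and 1.07 (0.696 to 1.65).

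Ring by ring, the difference between the genes was gradual. In the rIL7 section the 9 genes summed to 282 CPM in ring 1 and 258 CPM in ring 2, then 198 CPM in rings 3-4, 162 CPM in rings 5-8, 102 CPM in rings 9-12 and 92.8 CPM from ring 13 inwards. Ncr1 was level over the outer rings, at 25.4, 24.2, 25.5 and 25.7 CPM up to ring 8, and lower further in, at 14.0 and 13.5 CPM. Klre1 was at 10.5, 10.9 and 10.3 CPM up to ring 4, and then at 7.57, 5.55 and 4.76 CPM. Klrk1 instead was lower at each step inwards, from 40.2 CPM in ring 1 to 25.3 CPM in rings 3-4 and 8.63 CPM from ring 13 inwards. The CD3 chains went from 151 CPM in ring 1 to 53.3 CPM in rings 3-4 and 25.3 CPM in the deepest zone. In the control section the 9 genes stayed between 54.3 and 71.4 CPM from ring 1 to ring 12 and were lowest, at 42.0 CPM, from ring 13 inwards.

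**Figure D3:**
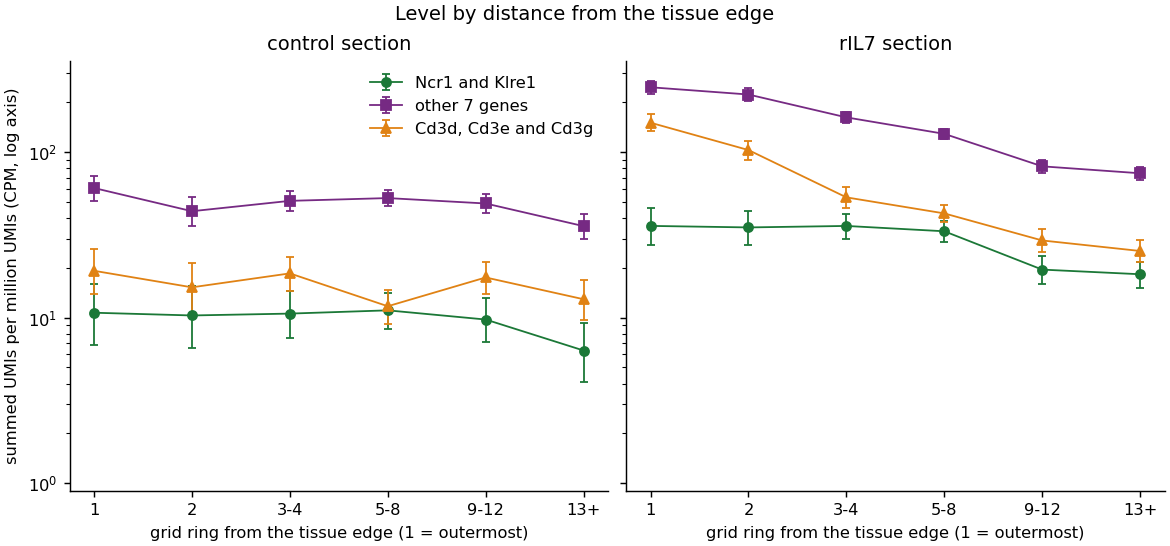
Summed CPM (log axis) of Ncr1 and Klre1 (green circles), of the other 7 genes (purple squares) and of the 3 CD3 chains (orange triangles) by grid ring from the tissue edge, with exact 95% Poisson intervals, in the control (left) and rIL7 (right) sections. In the rIL7 section the other 7 genes run from 246 CPM in ring 1 to 74.5 CPM in the deepest zone. Ncr1 and Klre1, a pair picked after the rim values had been seen, sum to between 33.3 and 35.8 CPM up to ring 8. Most of that sum is Ncr1, and Klre1 alone has 10.5 CPM in ring 1 and 7.57 CPM in rings 5-8.

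Other cell type markers moved with the rIL7 rim. The macrophage list (Csf1r, C1qa, Adgre1 and Cd68) had ratios above 1 for 4 of 4 genes and summed to 1553 CPM at the rim and 863 CPM in the interior, against 995 and 896 CPM in the control section. The 8 T cell reference genes summed to 280 and 76.2 CPM in the rIL7 section and to 36.0 and 31.1 CPM in the control section. Both CT26 tumor cell markers, Rpl39l and Baiap2l1, were lower at the rIL7 rim, with 757 CPM against 1096 CPM. The gamma-delta T cell gene Trdc, with 54 control and 160 rIL7 UMIs, had a rim ratio of 1.03 (0.643 to 1.59) in the rIL7 section. The neutrophil list summed to 201 CPM at the rIL7 rim and 256 CPM in the interior, the mast cell list to 27.3 and 9.85 CPM, and the dendritic cell list to 12.7 and 2.64 CPM. None of the macrophage, T cell or tumor markers was at 0 in either zone of either section, while of the B cell list Ms4a1 was at 0 at both rims. The part of tissue composition in the rim ratios of the members was not tested.

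A spot was called Cd3e-positive when it held at least 1 Cd3e UMI, which 78 control spots and 284 rIL7 spots did. Most spots with a member UMI had no Cd3e UMI. Of 406 rIL7 spots with Ncr1, 71 also held Cd3e, which is 17.5% (Clopper-Pearson interval 13.9 to 21.5) of the Ncr1 spots and 25.0% of the Cd3e spots, where 14.6% of all spots held Cd3e. Klrk1 shared 19.7% (15.9 to 24.1) of its spots with Cd3e, Klre1 15.3% (10.4 to 21.5) and Ifng 20.3% (13.8 to 28.1). For comparison, Cd3d, a chain of the same receptor complex, shared 23.4% (18.6 to 28.8) of its own spots, so co-detection was low even for genes of one complex.

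**Figure D4:**
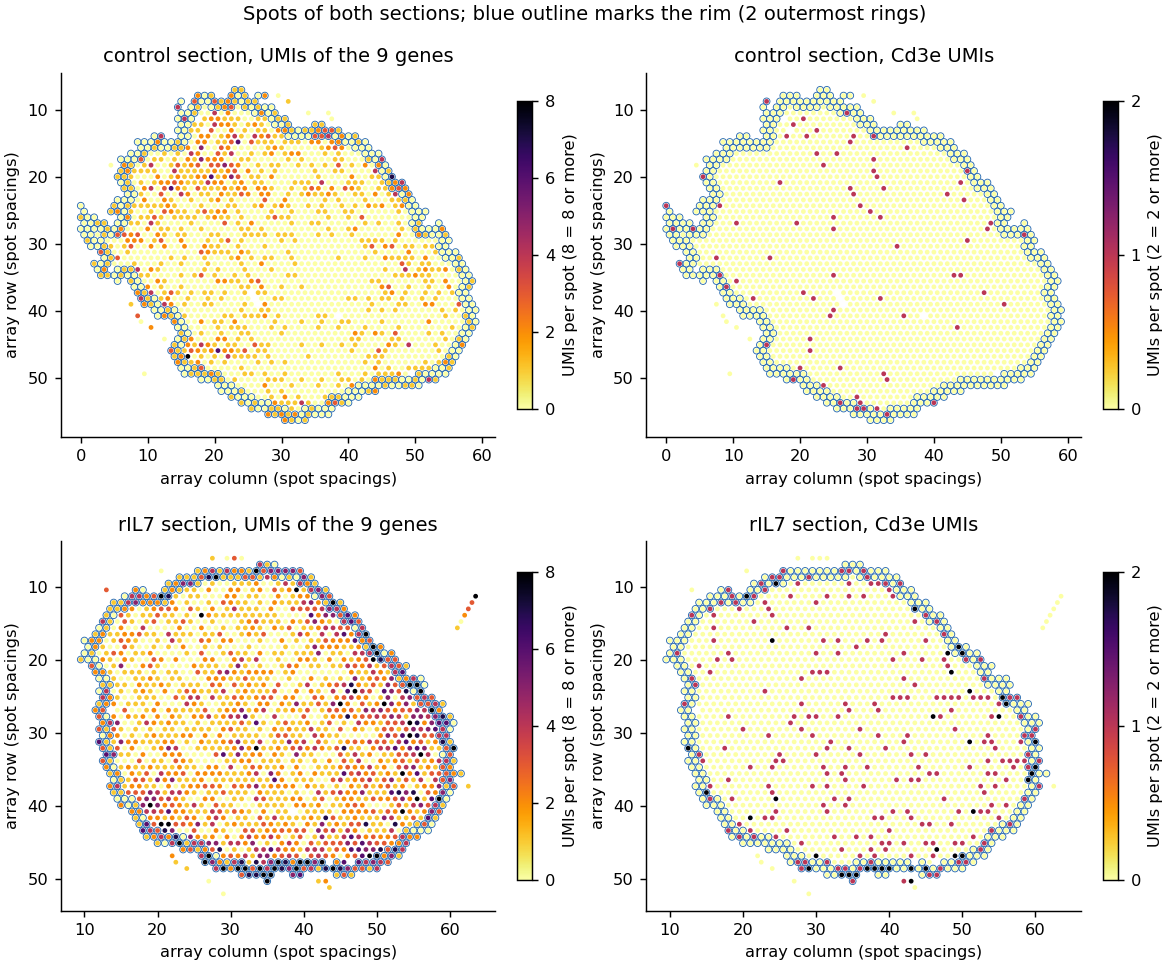
UMIs per spot of the 9 genes (left) and of Cd3e (right) over the control (top) and rIL7 (bottom) sections, drawn at the array positions in units of the spot spacing, with the rim outlined in blue. At least 1 of the 9 genes was seen in 39.9% of control spots and 78.2% of rIL7 spots, and the rIL7 spots with the most UMIs lie along the rim and on the right side of the section.

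The 9 genes were higher in the Cd3e-positive spots of the rIL7 section. They summed to 205 CPM (781 UMIs) in these and to 144 CPM (3161 UMIs) in Cd3e-negative spots, a ratio of 1.42 (1.31 to 1.54). In the 38 spots with at least 2 Cd3e UMIs the ratio was 2.37 (2.04 to 2.75), a split that was not repeated within each zone. Cd3e UMIs numbered 116 in the 87 positive rim spots and 208 in the 195 positive interior spots. Spots with 2 or more were thus relatively more frequent at the rim, where the 9 genes were also higher. At 1 or more Cd3e UMIs the genes ran from 1.06 for Klre1 to 1.90 for Xcl1, with a median of 1.38 against 1.001 over all features. Of the genes 9 of 9 lay above 1, against 50.4% of all features. None, 0 of 9, reached a ratio of 2, against 1.85% of 13357 features and 0.544% of the 6439 features in the UMI range of the members.

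The intervals lay above 1 for 5 genes: Xcl1 at 1.90 (1.32 to 2.71), Ifng at 1.61 (1.04 to 2.41), Klrk1 at 1.54 (1.22 to 1.93), Il2rb at 1.52 (1.32 to 1.75) and Klrd1 at 1.38 (1.16 to 1.63). They included 1 for Klrc1 at 1.35 (0.957 to 1.87), Ncr1 at 1.22 (0.956 to 1.53), Eomes at 1.09 (0.637 to 1.76) and Klre1 at 1.06 (0.685 to 1.58). How many of all features had an interval above 1 was not computed. The 8 T cell reference genes, which did not define the spots, had a median of 1.96 and overlapped the range of the members. They ran from Cd8a at 1.26 (0.9997 to 1.58) and Cd28 at 1.29 (0.683 to 2.28) to Cd4 at 3.20 (2.32 to 4.36), with Cd3g at 1.78 (1.47 to 2.15), Trac at 1.79 (1.50 to 2.13) and Cd3d at 2.19 (1.71 to 2.80). The ratio of Cd3d and Cd3g together was 1.35 times (1.14 to 1.60) that of the 9 genes. It was 1.64 times (1.27 to 2.12) that of Ncr1 and Klre1, the pair picked after the values had been seen.

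Cd3e-positive spots were more frequent at the rim, which held 87 of them, so the split was repeated within each zone. At the rim the sum was 340 CPM in Cd3e-positive and 243 CPM in Cd3e-negative spots, a ratio of 1.40 (1.23 to 1.59). There 7 of 9 genes lay above 1, against 50.5% of all features. Xcl1 was highest at 2.21 (1.25 to 3.87), while Ifng at 0.914 (0.417 to 1.85) and Eomes at 0.548 (0.164 to 1.46) lay below 1. In the interior, with 195 Cd3e-positive spots, it was 154 and 129 CPM, a ratio of 1.19 (1.07 to 1.32). There only Il2rb at 1.28 (1.06 to 1.54) and Ifng at 1.79 (1.04 to 2.96) had intervals above 1, and Klrc1 at 0.985 (0.584 to 1.58) and Klre1 at 0.627 (0.316 to 1.13) lay below 1. Ncr1 and Klre1 summed to 25.9 CPM in Cd3e-positive and 25.7 CPM in Cd3e-negative interior spots, a ratio of 1.01 (0.776 to 1.30).

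**Figure D5:**
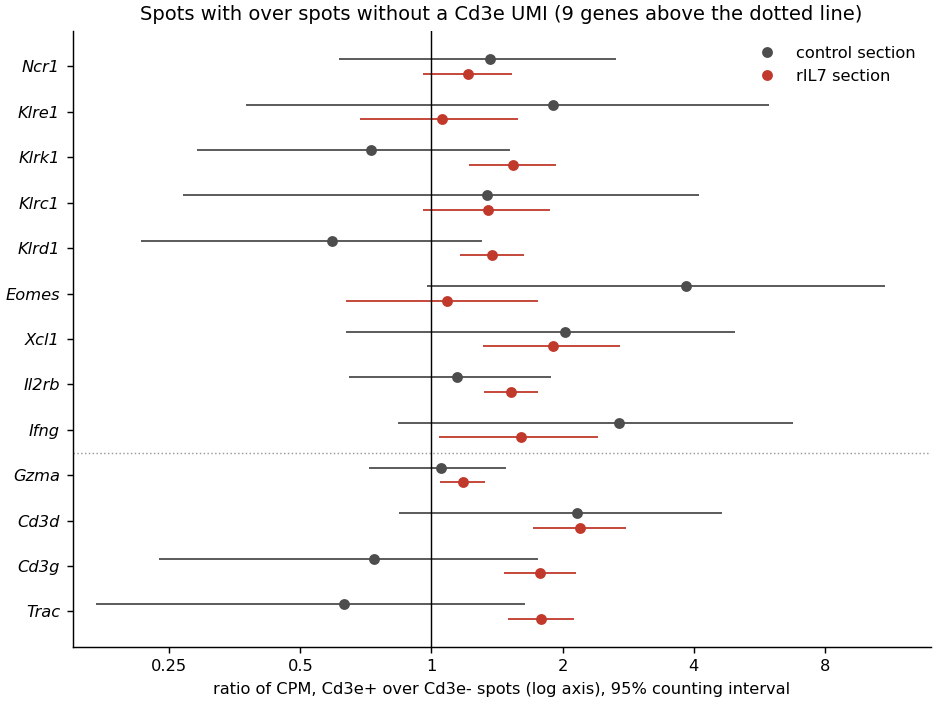
Ratio of CPM in spots with over spots without a Cd3e UMI (log axis) for the 9 genes, for Gzma and for 3 T cell genes that did not define the split, in the control (gray) and rIL7 (red) sections, with exact 95% counting intervals. In the rIL7 section the ratios of the 9 genes run from 1.06 to 1.90. Cd3d (2.19) lies above all of them, with an interval that overlaps that of Xcl1, while Trac (1.79) and Cd3g (1.78) lie below Xcl1 (1.90). The control intervals are wide because the split rests on 78 Cd3e-positive spots.

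Levels in the rIL7 section were lower the farther a spot lay from a Cd3e-positive spot. The 9 genes summed to 205 CPM in such spots, 168 CPM 1 grid step away, 120 CPM at 2 steps and 97.0 CPM at 3 steps or more. Ncr1 and Klre1 summed to 31.0, 29.4, 23.9 and 19.1 CPM over the same steps, and Cd3d and Cd3g to 62.5, 40.4, 23.6 and 19.9 CPM. Within the interior alone the 9 genes gave 154, 148, 112 and 89.1 CPM, and the intervals of the first 2 values, 139 to 169 and 140 to 155 CPM, overlapped. Ncr1 and Klre1 did not fall at each step within a zone. They gave 25.9, 28.7, 22.6 and 20.7 CPM in the interior. At the rim they gave 42.9, 33.0 and 35.1 CPM up to 2 steps and 9.90 CPM, on 1 UMI, beyond.

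At equal depth the split was clear for only some of the genes. With each spot thinned to 5900 UMIs and Cd3e called again, Klrk1 was seen in 19.2% (28 of 146) of Cd3e-positive and 8.76% (151 of 1723) of Cd3e-negative rIL7 spots, and Il2rb in 37.7% (55 of 146) and in 396 of 1723, and their intervals did not overlap. Klrd1 was seen in 24.7% (17.9 to 32.5) and 18.0% (16.3 to 19.9), Klrc1 in 10.3% (5.87 to 16.4) and 5.92% (4.85 to 7.14), Xcl1 in 6.16% and 3.25% and Ifng in 5.48% (2.40 to 10.5) and 2.90% (2.16 to 3.81), with overlapping intervals. Klre1 at 6.16% and 4.29% and Eomes at 2.74% and 2.61% overlapped too. Ncr1, whose CPM ratio was 1.22, was seen at the lower share in Cd3e-positive spots, in 9.59% (14 of 146) and 11.1% (191 of 1723), with overlapping intervals of 5.34 to 15.6 and 9.64 to 12.7.

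In the control section the Cd3e split rested on few UMIs. The 9 genes summed to 68.1 CPM (58 UMIs) in Cd3e-positive and 58.2 CPM (1285 UMIs) in Cd3e-negative spots, a ratio of 1.17 (0.884 to 1.52). A ratio of at least 2 was reached by 3 of 9 genes, against 2.9% of 13179 features and 5.5% of the 4385 features in the UMI range of the members. These were Eomes at 3.84 (0.977 to 11.0), Ifng at 2.70 (0.839 to 6.75) and Xcl1 at 2.03 (0.636 to 4.98), which rested on 4, 5 and 5 UMIs in Cd3e-positive spots and whose intervals included 1. In interior spots alone the intervals of Eomes, at 5.16 (1.29 to 15.3), and of Ifng, at 3.38 (1.04 to 8.58), lay above 1, on 4 and 5 UMIs in Cd3e-positive spots. T cell genes went both ways in the same split. Cd8b1 at 5.19 (1.77 to 12.7) had an interval above 1, Cd28, Cd5 and Cd3d were at 3.99, 2.73 and 2.16, Cd4 at 1.33 and Cd8a at 1.004, and Cd3g at 0.737 (0.236 to 1.75) and Trac at 0.629 (0.169 to 1.64) lay below 1, and the intervals of these 7 included 1.

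The members were also compared with each other. Across the rIL7 section, spots with a Ncr1 UMI had higher levels of Eomes, with a ratio of 1.81 (1.22 to 2.65) over spots without one, of Klrc1 at 1.65 (1.24 to 2.18), of Klrd1 at 1.39 (1.20 to 1.61), of Il2rb at 1.38 (1.21 to 1.57) and of Klrk1 at 1.30 (1.05 to 1.61). Xcl1 at 1.02 (0.690 to 1.47), Klre1 at 1.11 (0.774 to 1.57) and Ifng at 1.14 (0.750 to 1.69) had intervals that included 1. Some T cell genes were higher in these rIL7 spots by a like amount, with Trac at 1.37 (1.16 to 1.61), Cd3g at 1.35 (1.12 to 1.62) and Cd3e at 1.32 (1.02 to 1.69). Cd3d also had an interval above 1, while those of Cd8a, Cd8b1, Cd4, Cd5 and Cd28 included 1. The median was 1.299 over the 8 T cell reference genes and 1.34 over the other 8 members. In the control section Klrk1 at 2.02 (1.41 to 2.84) and Il2rb at 1.81 (1.33 to 2.41) had intervals above 1, and those of the other 6 members included 1. The control median was 1.503 over the other 8 members. It was 0.888 over the 7 T cell reference genes with at least 20 UMIs, of which 3 lay above 1, against 48.4% of all features. Each control interval of a T cell reference gene included 1. Spots with 3 or more of the 9 genes numbered 60 (2.70%) among control and 433 (22.2%) among rIL7 spots, and 31.6% of the latter were rim spots. The deeper median of those spots, 13570 UMIs against 12251 UMIs in rIL7 spots with none of the genes, stands beside that count.

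Further genes of the NK pathways were read from lists. Of 18 other NK receptor and adaptor genes, 13 had at least 20 UMIs over both sections, and of these 7 had an rIL7 over control ratio of at least 2 and 1 had a ratio of at most 0.5. Those at 2-fold or more included the Klre1 partner Klri2 at 2.28 (1.56 to 3.37), Klrc2 at 4.57 (2.69 to 8.19), the adhesion receptor gene Cd226 at 4.24 (2.25 to 8.68) and the Ly49 gene Klra7 at 3.89 (2.15 to 7.53). The 1 lower gene was Sh2d1b1, an adaptor of SLAM family receptors, with 287 control and 117 rIL7 UMIs and a ratio of 0.364 (0.291 to 0.452). Cd244a was close to even at 0.865 (0.704 to 1.06), and Klra1, Klra8 and Klrc3 were at 0 in the control section.

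Of 8 cytotoxic effector genes, 6 had a section ratio of at least 2, the others being Gzmb at 1.75 (1.57 to 1.95) and Prf1, which encodes perforin, at 1.78 (1.59 to 2.00). Their rim ratios in the rIL7 section spread too: Nkg7, a granule protein gene, had 2.26 (1.97 to 2.60), the chemokine gene Ccl5 2.76 (2.62 to 2.91) and Gzmb 1.22 (1.03 to 1.44). Unlike those of the members, the intervals of some included 1, namely Gzma at 0.989 (0.874 to 1.12), Prf1 at 1.06 (0.882 to 1.28) and Fasl at 1.55 (0.952 to 2.44).

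Ligands and signaling partners of the members differed less between the sections. Of 19 such genes, 15 had enough UMIs, and 1 of the 15, Xcr1 at 2.01 (0.830 to 5.34) on 8 and 18 UMIs, had a ratio of at least 2. The NKG2D adaptor gene Hcst had a ratio of 1.68 (1.43 to 1.97), close to the 1.61 of Klrk1 itself, and the NKG2D ligand genes Raet1e and Ulbp1 had 0.639 (0.455 to 0.893) and 0.881 (0.802 to 0.968). H2-T23, which encodes the Qa-1 ligand of CD94 and NKG2A, had 1.20 (1.15 to 1.25), and Il15, whose receptor contains the product of Il2rb, had 1.20 (1.07 to 1.35). The receptor genes for interferon gamma were near even, with Ifngr1 at 1.17 (1.11 to 1.22) and Ifngr2 at 1.02 (0.951 to 1.103).

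Among 9 genes induced by interferon gamma, 4 had a section ratio of at least 2, namely Cxcl9 at 3.01 (2.83 to 3.21), Ido1 at 2.48 (1.52 to 4.19), Gbp2 at 2.43 (2.26 to 2.61) and Cd274 at 2.15 (1.87 to 2.47). Ciita, the activator of MHC class II genes, was the only one below 1, at 0.915 (0.798 to 1.05). Cxcl9, a chemokine gene for activated lymphocytes, had a rim ratio of 3.48 (3.27 to 3.70) in the rIL7 section and 1.38 (1.21 to 1.56) in the control section, beside 2.50 and 0.731 for Ifng. This rIL7 rim ratio was the highest of the 9 induced genes, whose median was 1.82 in the rIL7 section and 1.26 in the control section. Cxcl10 had 1.86 and 1.93, and Ido1 lay below 1 in both sections, at 0.902 and 0.914.

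The 10 features most like the 9 genes were ranked by the Pearson correlation of their log2 CPM profile (pseudocount 1 CPM) with that of the sum, over 16 zones made of both sections, 4 quadrants, and rim or interior. Among 11062 features with at least 200 UMIs, in which the median correlation was -0.075, they were Nkg7 at 0.992, the T cell adaptor gene Sh2d2a at 0.988, Cd3g at 0.980, the complement gene C3 at 0.979, Dok2 and Ms4a4b at 0.976, Pdcd1 (PD-1) at 0.971, Ninj1 and Gimap6 at 0.970 and the T cell kinase gene Lck at 0.968. The zones of a section share 1 library, and the correlation is a description. Several of the 10, Cd3g, Lck and Pdcd1 among them, are genes of T cells, and these 3 had rIL7 rim ratios of 3.58, 2.65 and 4.29. High rim ratios were not particular to them, with C3 at 4.26, Ms4a4b at 3.14, Gimap6 at 2.35, Sh2d2a at 2.27 and Nkg7 at 2.26. Ninj1 was at 2.04, as were the 9 genes summed, and Dok2 was lower at 1.38. The ranking itself used these rim and interior levels.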

How the data were processed

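Gene expression was measured by Visium on 1 control and 1 rIL7 tumor section. According to the labels and the study's methods, the authors ran Space Ranger 1.1.0 with an mm10 reference, and what they deposited is a matrix of unnormalized UMI counts for every gene and spot. Other deposited columns, used unchanged, were barcodes, gene identifiers, the in-tissue flag and grid positions. Image scaling values went unused. Spots with more than 200 genes and under 10% mitochondrial UMIs were kept (2 control spots and 1 rIL7 spot removed).

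Counts were summed per zone and divided by the zone's total. Intervals (95%) were exact Poisson for levels, exact conditional binomial for ratios and Clopper-Pearson for shares, and ratios of ratios used the conditional odds ratio. For a single ratio, a sum of 0 on either side was set to 3 UMIs. In shares and medians over features or lists, a sum of 0 in the first zone gave a ratio of 0. Under the alternative settings a sum of 0 gave no value. Thinning to 5900 UMIs left out 217 control and 81 rIL7 spots. Since each group is 1 section, edgeR and DESeq2 served only to compute scaling factors and no test was run. The ratio and its interval were tested on section sums simulated from a Poisson law, and the ring numbers on a hexagon. The intervals assume the same law, so spread between spots, zones or mice was not covered. Named genes were the 9 members, genes of the lists, and the 10 features most correlated with the sum. The members and lists were chosen with earlier results of these data known. Alternatives covered the spot filter, scaling, weighting of spots, thinning, rim width, zones, the definition of T cell spots and, added after the data had been seen, each quadrant left out. Gene positions are from RefSeq on GRCm38.p6. Software was Python 3.11.15, numpy 2.4.6, scipy 1.17.1, pandas 2.3.3, matplotlib 3.10.9, R 4.3.3, edgeR 4.0.16 and DESeq2 1.42.0.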

Additional observations from a re-analysis of the deposited data

Results flagged for a closer look

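In 5 results the ratio lay above 1 in the rIL7 section and below 1 in the control section for the same contrast; the difference between the sections was not tested, as each is 1 library. For rim over interior these were Klre1, at 1.61 (1.11 to 2.28) in the rIL7 section and 0.914 (0.367 to 2.00) in the control section, Eomes, at 1.74 (1.11 to 2.65) and 0.987 (0.331 to 2.47), and Ifng, at 2.50 (1.71 to 3.61) and 0.731 (0.298 to 1.57). The rIL7 ratio of Ifng was 3.41 times its control ratio (1.43 to 9.08), while for Klre1 and Eomes the factor's interval included 1. For Cd3e-positive over Cd3e-negative spots they were Klrk1, at 1.54 (1.22 to 1.93) and 0.726 (0.289 to 1.52), and Klrd1, at 1.38 (1.16 to 1.63) and 0.592 (0.215 to 1.31), and the rIL7 ratio was 2.12 times (0.967 to 5.49) and 2.33 times (1.03 to 6.52) the control ratio. The control values of these 5 rest on 6 to 8 UMIs in the smaller zone and their intervals include 1.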

How the results depend on the processing

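Of the values of the summed genes under other settings, 56 stayed within the counting interval of the reported value and 16 did not. None whose interval excluded 1 moved to the other side of 1. The control Cd3e ratio of 1.17, whose interval included 1, was below 1 in 3 settings, at 0.927 with the 5 NK receptor genes alone, 0.893 without quadrant 1 and 0.635 in rim spots. The section ratio of 2.62 became 2.82 with spots weighted equally, 2.88 after thinning, 2.30 in interior spots and 4.28 in rim spots, and 3.22 without quadrant 1 and 2.16 without quadrant 4 of each section. The control rim ratio of 1.095 became 1.46 with spots weighted equally, 1.25 with a rim of 1 ring and 1.36 without quadrant 1. The rIL7 rim ratio of 2.04 became 2.21 after thinning and 2.28 without quadrant 3. The rIL7 Cd3e ratio became 1.19 in interior spots, 1.62 after thinning, 2.37 with at least 2 Cd3e UMIs (38 spots) and 1.27 without quadrant 4. The cause was not tested. The control section had 0 spots with 2 Cd3e UMIs, so that setting gave no value there. For single genes 505 values stayed within the interval, 46 did not, and 2 whose reported interval excluded 1 moved to the other side of 1: the Cd3e ratio of Ifng in the rIL7 section was 0.914 in rim spots and 0.666 with at least 2 Cd3e UMIs. Where the reported interval included 1, a further 32 values moved across 1, of which 7 also left that interval, among them the rIL7 Cd3e ratios of Eomes (0.548 in rim spots), Klre1 (0.627 in interior spots) and Ncr1 (0.854 after thinning). TMM and median-of-ratios scaling moved the section ratio by 0.0111 and 0.0119 on the log2 scale. No paired analysis was possible because each group holds 1 section and no test was run. Depth limits the control section most, where Eomes, Klre1, Ifng, Klrc1 and Xcl1 have 31 to 69 UMIs each.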
